A study of Mus musculus with 22 samples.

Results

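The methylation of 10 genes that mark alveolar and luminal progenitor cells of the mammary gland was followed: Elf5, Ehf, Kit, Aldh1a3, Stat5a, Stat5b, Lalba, Wap, Csn2 and Csn3. The CpG positions counted are those in the gene body or within 2 kb of a RefSeq start site (build mm10) that were covered by at least 10 reads in all 22 samples, 397 of 1140639 such positions in the series. A position is 1 cytosine of a CpG on 1 strand. The 397 positions lay in 8 of the genes. Lalba on chromosome 15 (98480400 to 98482683) and Csn2 on chromosome 5 (87692619 to 87699425) had no position in any sample, so that nothing is said here of their methylation.

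DNA methylation was profiled by enhanced reduced representation bisulfite sequencing (ERRBS), which reads CpG-rich restriction fragments base by base, in bulk mammary glands and tumors. The PyMT samples came from female mice heterozygous for MMTV-PyMT on the FVB strain, in which the mouse mammary tumor virus promoter drives the polyoma middle T oncogene mainly in mammary epithelium. They were taken at hyperplasia (week 6, n = 2), adenoma/MIN (mammary intraepithelial neoplasia, week 8, n = 3), early carcinoma (week 10, n = 3) and late carcinoma (week 12, n = 2). The 12 controls were mammary glands of FVB females without the transgene, 3 at each of the same ages.

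ELF5 and EHF are ETS transcription factors of the mammary epithelium, and ELF5 directs luminal progenitors toward the milk-secreting alveolar fate. KIT is a receptor tyrosine kinase and ALDH1A3 a retinaldehyde dehydrogenase, and both are used to recognise luminal progenitors. Prolactin acts through its receptor and JAK2 on STAT5A and STAT5B, which drive alveolar growth and the milk protein genes Wap (whey acidic protein), Csn2 and Csn3 (β- and κ-casein) and Lalba (α-lactalbumin).

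The mean coverage of a position was 60.2 to 79.2 reads per sample. The study's methods describe as many mice as samples for each strain and age before its outliers were removed. The limma p-values measure the spread between these samples, and the q-values of the read-based test do not. The mean methylation of the positions shared by all samples was 24.6 to 25.2% in PyMT and 25.8 to 26.3% in FVB. The member genes were covered by 52.8 (Elf5) to 86.6 (Stat5b) reads per position and sample.

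The regions that carry the results are shown as the reference sequence (mm10, from RefSeq's genome and promoter table), read along the gene's own strand, with the covered CpGs in capitals. The promoter table listed Elf5, Kit, Stat5a, Stat5b, Lalba, Wap and Csn2. It did not list Ehf, Aldh1a3 and Csn3. Shown are the 250 bases before a start site of Elf5, Stat5a and Stat5b, the same for Wap with its first 40 transcribed bases, and the 6 CpG clusters (runs of at least 3 positions with gaps of at most 100 bp) of the member genes with the largest difference between PyMT and FVB. The windows of Stat5a and Stat5b are shown as unmethylated CpG-rich sequence beside the CpG-poor windows of Elf5 and Wap.
Elf5, before the internal start, chr2:103423818-103424067 (+): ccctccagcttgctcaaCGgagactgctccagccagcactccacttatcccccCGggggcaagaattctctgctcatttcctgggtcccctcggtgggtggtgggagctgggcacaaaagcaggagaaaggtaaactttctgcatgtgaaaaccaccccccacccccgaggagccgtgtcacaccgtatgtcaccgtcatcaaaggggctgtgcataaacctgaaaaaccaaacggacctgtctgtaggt
Wap, around the start, chr11:6638610-6638899 (-): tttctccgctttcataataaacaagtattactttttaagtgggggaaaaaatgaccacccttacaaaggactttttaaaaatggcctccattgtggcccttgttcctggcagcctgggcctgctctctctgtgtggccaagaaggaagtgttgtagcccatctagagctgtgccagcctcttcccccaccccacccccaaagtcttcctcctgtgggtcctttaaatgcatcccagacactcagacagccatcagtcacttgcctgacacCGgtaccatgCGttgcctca
Stat5a, before a start, chr11:100860234-100860483 (+): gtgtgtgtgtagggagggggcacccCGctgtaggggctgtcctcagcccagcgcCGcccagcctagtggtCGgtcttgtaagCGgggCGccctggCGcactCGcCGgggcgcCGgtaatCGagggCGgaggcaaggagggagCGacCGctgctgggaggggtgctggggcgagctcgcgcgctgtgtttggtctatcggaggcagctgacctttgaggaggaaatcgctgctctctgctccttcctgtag
Stat5b, before a start, chr11:100850582-100850831 (-): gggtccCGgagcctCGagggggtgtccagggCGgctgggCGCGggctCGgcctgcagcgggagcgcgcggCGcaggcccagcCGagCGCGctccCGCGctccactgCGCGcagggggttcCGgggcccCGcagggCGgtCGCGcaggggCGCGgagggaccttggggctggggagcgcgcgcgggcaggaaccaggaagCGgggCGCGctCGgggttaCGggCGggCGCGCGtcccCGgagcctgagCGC
Ehf, upstream cluster, chr2:103303602-103303675 (-): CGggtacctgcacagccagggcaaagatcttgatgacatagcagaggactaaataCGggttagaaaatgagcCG
Elf5, intronic cluster, chr2:103424412-103424515 (+): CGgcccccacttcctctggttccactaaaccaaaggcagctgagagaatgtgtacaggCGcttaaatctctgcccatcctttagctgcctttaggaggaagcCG
Kit, intronic cluster, chr5:75628054-75628173 (+): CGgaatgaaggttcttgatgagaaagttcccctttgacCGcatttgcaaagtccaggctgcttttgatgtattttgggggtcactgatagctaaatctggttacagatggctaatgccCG
Aldh1a3, exonic cluster, chr7:66409177-66409266 (-): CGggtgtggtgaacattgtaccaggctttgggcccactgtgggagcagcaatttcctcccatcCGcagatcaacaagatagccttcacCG
Stat5b, exonic cluster, chr11:100787231-100787326 (-): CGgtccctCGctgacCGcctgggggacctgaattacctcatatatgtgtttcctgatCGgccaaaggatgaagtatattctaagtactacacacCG
Stat5b, exonic cluster, chr11:100790748-100790860 (-): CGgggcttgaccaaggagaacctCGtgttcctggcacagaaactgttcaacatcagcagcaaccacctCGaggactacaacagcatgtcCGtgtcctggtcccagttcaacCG

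The promoters of both ETS factors and of Wap and Csn3, the milk genes with covered positions, were less methylated in PyMT. Promoter methylation was averaged over the covered positions within 2 kb of a start site in each sample, and PyMT was compared with FVB by limma over all weeks, each week counting equally. The mean difference was -44.0 points for Ehf, -26.7 for Elf5, -26.3 for Wap and -11.1 for Csn3. In each of these promoters all 10 PyMT samples lay below all 12 controls. How many of all promoters, gene bodies or clusters were separated in this way was not counted, so such separations are descriptions only. Of the 8 member promoters tested, 5 were lower, 1 was higher and 2 were not called at an adjusted p under 0.05. Over all 16406 promoters tested, 17% were lower and 17% were higher. Because the tissue is bulk, a change in the share of a cell type and a change of methylation within cells cannot be told apart in any of these results.

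**Figure D1:**
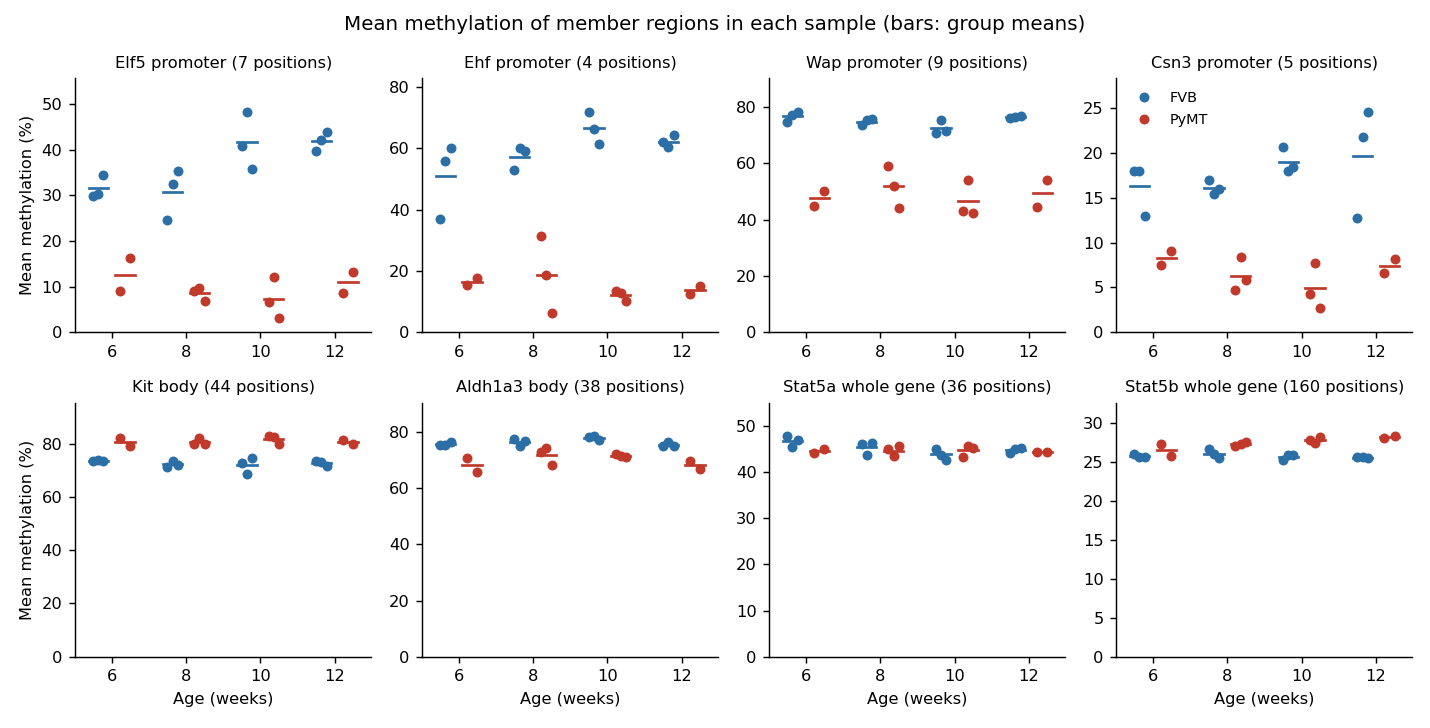
Mean methylation (%, vertical axis, scale set for each panel and starting at 0) of a region in each sample by age in weeks. Blue points are FVB and red points PyMT samples, and bars are group means. All PyMT points lie below all FVB points for the promoters of Elf5, Ehf, Wap and Csn3 and for the Aldh1a3 body, above them for the Kit body, and among or close to them for Stat5a and Stat5b.

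Ehf (chr2:103263433-103303196, minus strand) had a lower mean in PyMT at all 7 covered positions. At its 4 promoter positions (-479 to -101 bp from the start) the PyMT values were 15.3 and 17.8% at week 6, then 31.4, 18.5 and 6.21% at week 8. They were 13.4, 12.7 and 10.3% at week 10, and 12.5 and 15.1% at week 12. The controls had 36.9, 55.8 and 60.0% at week 6, 52.8, 60.1 and 59.0% at week 8, 72.0, 66.3 and 61.5% at week 10, and 62.0, 60.4 and 64.3% at week 12. The highest PyMT sample thus stayed below the lowest control, and the means were 15.3% ± 6.68 (SD, n = 10) and 59.3% ± 8.56 (SD, n = 12). The difference over all weeks was -44.0 ± 2.94 points (SE, limma adjusted p = 2.98e-09), with 23 of 16406 promoters lower still. The difference passed the test at each week, from -34.4 ± 6.2 points at week 6 (limma adjusted p = 0.00217) to -54.5 ± 5.54 points at week 10 (limma adjusted p = 2.11e-06).

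The 3 positions of the upstream cluster printed above fell together: 21.2, 17.6 and 12.1% in PyMT against 69.1, 65.6 and 61.1% in FVB, at -406, -423 and -479 bp. The cluster as a whole differed by -48.0 ± 3.34 points (SE, limma adjusted p = 5.66e-09), the largest difference of any member cluster. Inside the gene, a pair of positions in an intron 5369 and 5520 bp after the start had 13.9 and 14.2% in PyMT against 58.0 and 64.0% in FVB. A further intronic position 29403 bp after the start had 77.2% in PyMT and 89.8% in FVB. The loss in Ehf was therefore measured both before the start and inside the gene, from few positions: 4 and 3. Inside the gene it was larger at the pair nearer the start.

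Elf5 (chr2:103412098-103450989, plus strand) lies 109 kb beyond Ehf on the same chromosome. Its loss was measured around its internal start, while the mean of its other positions was higher in PyMT. The 7 promoter positions surround this start, from -463 to 447 bp. Their mean in PyMT was 8.99 and 16.2% at week 6, 9.0, 9.69 and 6.91% at week 8, 6.61, 12.1 and 3.12% at week 10, and 8.61 and 13.2% at week 12. The controls had 29.8, 30.3 and 34.4% at week 6, 24.7, 32.4 and 35.4% at week 8, 40.8, 48.4 and 35.8% at week 10, and 39.7, 42.1 and 44.0% at week 12. No PyMT sample reached the lowest control, and the control means were higher at the later ages. The difference over all weeks was -26.7 ± 1.71 points (SE, limma adjusted p = 1.96e-09).

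The loss around the Elf5 start was uneven between neighbouring CpGs. The position at -463 bp was nearly unmethylated in both groups (1.58% in PyMT, 1.5% in FVB), whereas the next covered position, at -416 bp, had 16.8% in PyMT and 75.6% in FVB. The pair in the printed window, at -232 and -196 bp, had 12.5 and 15.3% in PyMT and 38.1 and 43.4% in FVB. The intronic cluster 344 to 447 bp after the start differed by -25.7 ± 1.97 points (SE, limma adjusted p = 1.57e-08), from 32.3% ± 7.95 in FVB (SD, n = 12) to 6.64% ± 1.90 in PyMT (SD, n = 10). The positions before the start were read less deeply, 21.5 to 26.2 reads per sample, than those after it, 57.2 to 70.7 reads.

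The rest of Elf5 moved the other way. Its 16 positions outside the promoter had a mean of 74.0% ± 4.30 in PyMT (SD, n = 10) and 67.5% ± 3.15 in FVB (SD, n = 12), a difference of 6.47 ± 1.24 points (SE, limma adjusted p = 1.93e-04). Both clusters there were higher: the intronic one centred at -2928 bp by 6.05 ± 2.0 points (SE, limma adjusted p = 0.0184), and the one at 25567 bp, 7 of whose 8 positions are coding, by 6.88 ± 1.67 points (SE, limma adjusted p = 0.00240). The PyMT and FVB ranges of the body overlapped, unlike those of the promoter. Averaged over the whole gene the opposite changes gave -3.61 ± 1.11 points (SE, limma adjusted p = 0.0109). That call was lost when positions had to be covered by 20 reads (-0.18 points, limma adjusted p = 0.926) and with the replicate number as a block (-3.16 points, limma adjusted p = 0.0911). With 20 reads, only 3 promoter positions of Elf5 remained, those after the start.

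Wap (chr11:6635483-6638649, minus strand), the major whey protein of mouse milk, lost methylation next to its start. Its gene is short, and all 9 covered positions counted as promoter. Their mean ran from 42.5 to 59.2% in PyMT (median 47.6%) and from 70.8 to 78.4% in FVB (median 75.5%), without overlap. The difference was -26.3 ± 1.91 points (SE, limma adjusted p = 7.47e-09). The 3 positions within 143 bp after the start had 17.8, 17.2 and 26.6% in PyMT against 76.2, 74.8 and 83.3% in FVB, and at each of them all PyMT samples lay below all controls. These are the covered CpGs of the printed window and 1 position in the intron that follows. The 6 positions centred 1451 bp after the start differed less, by -10.5 ± 2.17 points (SE, limma adjusted p = 6.13e-04), and those at 1470 and 1469 bp had 84.0 and 85.4% in PyMT and 84.1 and 86.6% in FVB. Restricted to 500 bp around the start, the difference was -58.0 points (limma adjusted p = 1.99e-10).

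Csn3 (chr5:87925579-87932550, plus strand), which encodes the casein that keeps milk micelles in suspension, was lowly methylated in the control gland already. Its 5 positions lay between -123 and 58 bp from the start. The mean ran from 2.72 to 9.06% in PyMT (median 7.04%) and from 12.8 to 24.6% in FVB (median 18%). The groups did not overlap, and the difference was -11.1 ± 1.19 points (SE, limma adjusted p = 7.56e-07). Its cluster of 4 positions centred 25 bp after the start differed by -10.6 ± 1.51 points (SE, limma adjusted p = 1.77e-05). At week 6 the promoter difference was -8.01 ± 2.50 points and did not pass the test over all promoters (limma adjusted p = 0.0587). The same 5 positions make up the whole gene, and over all genes this difference passed (limma adjusted p = 0.0325). At weeks 8, 10 and 12 it was -9.84, -14.2 and -12.3 points, each past the test.

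**Figure D2:**
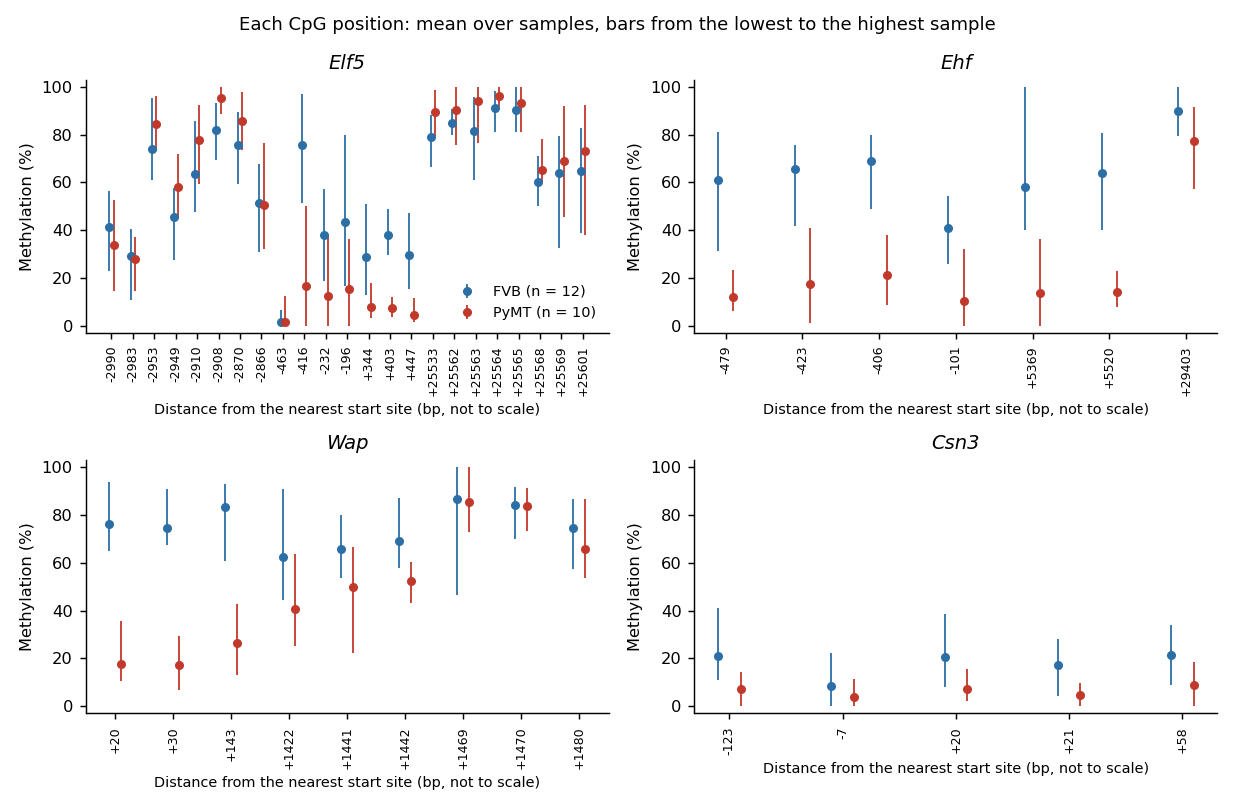
Methylation (%) at each covered position of Elf5, Ehf, Wap and Csn3, ordered by distance in bp from the nearest start site (not to scale). Points are means over the 12 FVB (blue) and 10 PyMT (red) samples and bars run from the lowest to the highest sample; in Elf5 the gap opens between -416 and 447 bp, in Wap at the 3 positions nearest the start.

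The Kit gene gained methylation, in its introns. Kit (chr5:75574987-75656722, plus strand) had 14 promoter and 44 body positions. The body mean ran from 79.0 to 82.8% in PyMT (median 80.7%) and from 68.4 to 74.6% in FVB (median 73.2%), without overlap. The difference was 8.26 ± 0.761 points (SE, limma adjusted p = 4.41e-08) and passed the test at each week, between 6.92 and 9.81 points. Over the 11437 gene bodies tested, 20% were higher in PyMT and 46.4% were lower. Of the 6 member bodies tested, those of Kit and Elf5 were higher, those of Ehf and Aldh1a3 were lower, and those of Stat5a and Stat5b were not called.

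The gain in Kit was not spread over all of the gene. The cluster printed above, in an intron 53122 bp after the start, had 86.8% ± 3.56 in PyMT (SD, n = 10) and 58.5% ± 13.3 in FVB (SD, n = 12), a difference of 28.5 ± 4.02 points (SE, limma adjusted p = 1.48e-05). A cluster 32516 bp after the start was higher by 15.9 ± 2.50 points (SE, limma adjusted p = 4.46e-05), and its neighbour at 33205 bp by 9.77 ± 1.31 points (SE, limma adjusted p = 8.54e-06). An intronic cluster 3978 bp after the start was higher by 9.87 ± 2.72 points (SE, limma adjusted p = 0.00605). At 54355 and 67314 bp the clusters were highly methylated in both groups and differed by -0.24 and -0.70 points, not past the test. The CpG-rich start itself stayed near 0: the promoter mean was 0.723% ± 0.569 in PyMT (SD, n = 10) and 1.78% ± 0.780 in FVB (SD, n = 12), a small loss (-1.09 ± 0.298 points, SE, limma adjusted p = 0.00737). The cluster centred 263 bp after the start had 0.183% ± 0.210 in PyMT (SD, n = 10) and 0.206% ± 0.264 in FVB (SD, n = 12) and was not called (limma adjusted p = 0.971). The promoter call was lost at a coverage minimum of 20 reads (-0.47 points, limma adjusted p = 0.281).

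Aldh1a3 (chr7:66390892-66427477, minus strand) had a lower body mean in PyMT. Of the 9 clusters of the whole gene, promoter included, 6 were lower and 2 higher. The body mean of 38 positions ran from 65.9 to 74.3% in PyMT (median 70.9%) and from 75.0 to 78.6% in FVB (median 76.5%). All PyMT samples lay below all controls, and the difference was -6.41 ± 0.805 points (SE, limma adjusted p = 1.89e-06). The exonic cluster printed above, 18256 bp after the start, had 13.4% ± 6.16 in PyMT (SD, n = 10) and 45.7% ± 9.55 in FVB (SD, n = 12), and differed by -32.4 ± 3.53 points (SE, limma adjusted p = 8.31e-07). The intronic cluster 5719 bp after the start moved the opposite way, from 37.7% ± 6.06 in FVB (SD, n = 12) to 60.4% ± 5.55 in PyMT (SD, n = 10), by 22.5 ± 2.85 points (SE, limma adjusted p = 4.48e-06). The nearest other cluster, 5103 bp after the start, was lower by 12.7 points (-12.7 ± 2.21, SE, limma adjusted p = 1.30e-04). The promoter was unmethylated in both groups, at 1.36% ± 0.398 in PyMT (SD, n = 10) and 1.09% ± 0.236 in FVB (SD, n = 12), and its difference was not called (0.27 ± 0.149 points, SE, limma adjusted p = 0.191). The cluster nearest the start, centred at 72 bp, was not called either (0.34 ± 0.155 points, SE, limma adjusted p = 0.0839). Of the other promoter clusters, the one centred at -294 bp was slightly higher (0.71 ± 0.201 points, SE, limma adjusted p = 0.00726). The one centred at 455 bp was lower (-4.37 ± 1.32 points, SE, limma adjusted p = 0.0110).

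**Figure D3:**
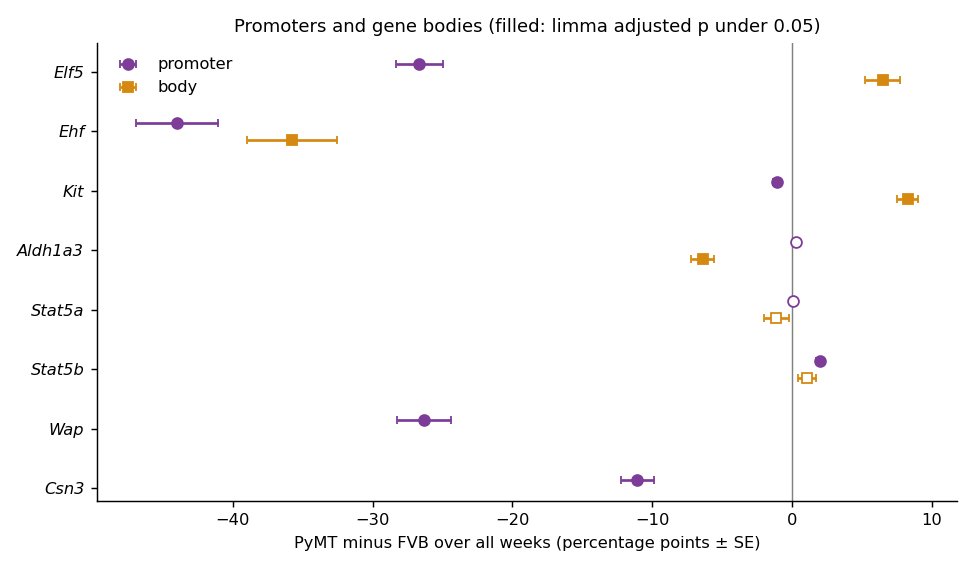
Difference PyMT minus FVB over all weeks in percentage points (horizontal axis, bars are SE) for the promoter (circles) and the gene body (squares) of each gene with at least 3 positions there; filled symbols have a limma adjusted p under 0.05. Elf5 has a negative promoter and a positive body difference, Ehf is negative in both, and Stat5a is near 0 in both.

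The 2 Stat5 genes lie 8.77 kb apart on chromosome 11, and their CpG-rich starts were nearly unmethylated in both groups. In Stat5a (chr11:100859351-100885169, plus strand) the 16 promoter positions had means of 0.202% ± 0.589 in PyMT (SD, n = 10) and 0.109% ± 0.118 in FVB (SD, n = 12). In Stat5b (chr11:100780731-100850581, minus strand) 101 positions around the most upstream start formed 1 cluster with 0.134% ± 0.0578 in PyMT (SD, n = 10) and 0.145% ± 0.0706 in FVB (SD, n = 12). Neither difference passed the test (limma adjusted p = 0.853 and 0.911).

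Stat5a showed no change of its mean, and small clusters of both signs within it. The whole-gene mean ran from 43.4 to 45.6% in PyMT (median 44.7%) and from 42.7 to 47.8% in FVB (median 45.2%). The groups overlapped, and the difference was -0.61 ± 0.489 points (SE, limma adjusted p = 0.329). With positions covered by 20 reads it was -1.99 points and passed the test (limma adjusted p = 0.00274). A coding-exon cluster 19276 bp after the start was lower by 8.78 points (-8.78 ± 2.15, SE, limma adjusted p = 0.00254). An intronic cluster 20198 bp after it was higher by 13.7 ± 2.64 points (SE, limma adjusted p = 3.32e-04).

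In Stat5b 4 of 8 clusters passed the test, 3 higher and 1 lower, all away from its most upstream start. Their distances are given from the nearest start, an internal one. The printed coding-exon cluster 26092 bp after the internal start had 87.4% ± 4.25 in PyMT (SD, n = 10) and 60.2% ± 10.5 in FVB (SD, n = 12). It was higher by 27.2 ± 3.58 points (SE, limma adjusted p = 6.86e-06). The other printed coding-exon cluster, 22566 bp after the internal start, had 10.8% ± 4.02 in PyMT (SD, n = 10) and 33.9% ± 6.06 in FVB (SD, n = 12). It was lower by 22.9 points (-22.9 ± 2.49, SE, limma adjusted p = 8.12e-07). Thus 2 exonic stretches of a single gene changed in opposite directions, and in each all PyMT samples lay outside the range of the controls. An intronic cluster at -1264 bp from the same internal start was higher by 22.1 ± 2.99 points (SE, limma adjusted p = 9.43e-06), from 27.5% ± 7.44 in FVB (SD, n = 12) to 50.3% ± 8.49 in PyMT (SD, n = 10). A cluster at 18748 bp, in coding and intronic sequence, was higher by 6.49 ± 1.08 points (SE, limma adjusted p = 8.04e-05). The Stat5b promoter mean, which holds the cluster near the internal start, was higher by 1.98 ± 0.271 points (SE, limma adjusted p = 1.19e-05), and with 500 bp on each side of the starts the difference was -0.0083 points (limma adjusted p = 0.933). The body mean differed by 1.03 ± 0.647 points and was not called (limma adjusted p = 0.170).

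Over the 36 CpG clusters of the member genes, 13 were lower, 12 were higher and 11 were not called (limma, adjusted p under 0.05). Over all 84563 clusters tested, 31.6% were lower and 16.6% were higher. The 19 member clusters with 10 to 80% methylation in FVB held 9 of the lower and 9 of the higher ones, and 1 that was not called. Among the 7 clusters under 10% in FVB, the differences ran from -4.37 to 0.71 points. Differences of at least 20 points were found in 4 clusters downward (Ehf, Aldh1a3, Elf5 and Stat5b) and in 4 upward (Kit, 2 in Stat5b and Aldh1a3). Over all clusters, 6.74% were lower and 2.25% higher by that much.

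**Figure D4:**
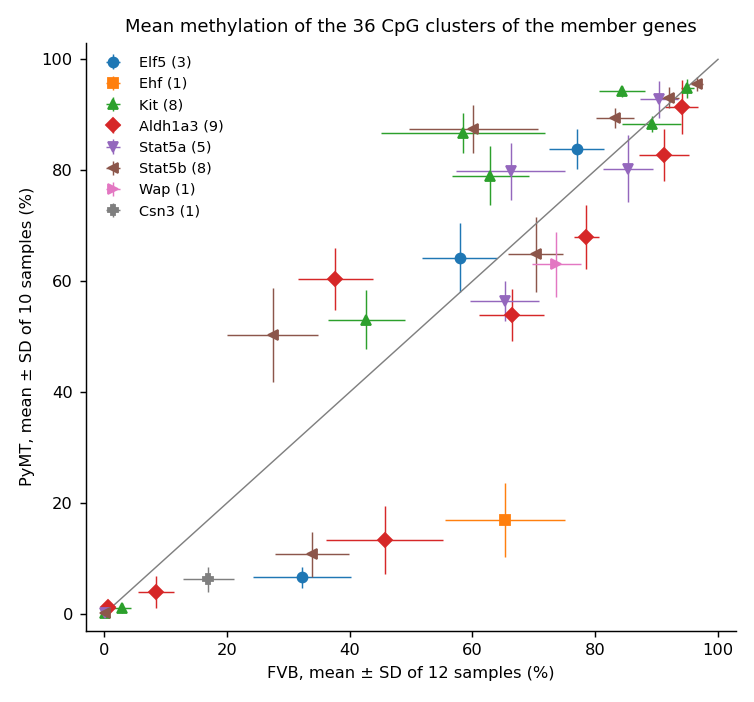
Mean methylation (%) of the 36 CpG clusters of the member genes in FVB (horizontal axis, mean ± SD of 12 samples) and PyMT (vertical axis, mean ± SD of 10 samples), with the line of equality. Symbols are genes, with their number of clusters; clusters near 0 lie on the line, and those far below it belong to Ehf, Aldh1a3, Elf5 and Stat5b.

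At whole-gene level, 5 members were lower over all weeks (Ehf, Wap, Csn3, Elf5 and Aldh1a3), 2 were higher (Kit and Stat5b) and Stat5a was not called. Over all 18676 genes tested, 34.9% were lower and 18.4% were higher, so that calls of this kind were common. The calls of Elf5 (above), and of Aldh1a3 and Stat5b when positions were weighted by coverage (limma adjusted p = 0.0903 and 0.870), did not hold under every setting. The sizes of Ehf and Wap were rarer: the median difference over all genes was -0.0886 points, and 30 genes were lower than Ehf and 150 lower than Wap. For the other called members, larger absolute differences were more frequent. They were found in 6.76% of all genes for Csn3, 15.6% for Kit, 24.1% for Elf5, 33.2% for Aldh1a3 and 39.3% for Stat5b. For Ehf, Wap and Kit the exact permutation test of the labels within weeks gave p = 2.5e-05 (two-sided), the smallest it can give.

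Counted position by position with a read-based test (logistic regression, q-value under 0.01, at least 10 points), the members held 34 hypo-DMCs (differentially methylated cytosines, lower in PyMT) and 20 hyper-DMCs at week 6. They held 35 and 35 at week 8, 42 and 36 at week 10, and 36 and 38 at week 12, of 397 positions each time. In percent, the hypo-DMCs were 8.56, 8.82, 10.6 and 9.07% of the member positions, and 6.01, 7.1, 8.42 and 8.53% of all positions. The hyper-DMCs were 5.04, 8.82, 9.07 and 9.57% of the member positions, and 2.62, 3.2, 4.39 and 4.44% of all. In this read-based test both shares lay above those of the series at each week, by little for the hypo-DMCs at week 12. The difference was not tested.

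Single genes held DMCs of 1 or of both directions. Ehf (5 to 7 a week), Wap (3 to 5) and Csn3 (1 to 3) had hypo-DMCs and no hyper-DMC. Kit had 8, 14, 15 and 10 hyper-DMCs and a single hypo-DMC, at week 12. Stat5b had 9, 15, 15 and 19 hyper-DMCs and 6, 7, 8 and 6 hypo-DMCs, and Aldh1a3 had 10, 13, 11 and 10 hypo-DMCs and 3, 3, 3 and 4 hyper-DMCs. Elf5 had 3, 3, 6 and 6 hypo-DMCs, all in the promoter, and 0, 3, 0 and 4 hyper-DMCs, all in the body. Stat5a had 3, 0, 2 and 2 hypo-DMCs and 0, 0, 3 and 1 hyper-DMCs. No member position was called in opposite directions at different weeks. Positions that were hypo-DMCs at all 4 stages numbered 5 in Ehf, 5 in Stat5b, 4 in Aldh1a3, 3 in Elf5 and 3 in Wap, in all 20 (5.04%, against 3.27% of all positions). Lasting hyper-DMCs, called at each of the 4 stages, were found in Stat5b (7), Kit (4) and Aldh1a3 (2), in all 13 (3.27%, against 1.05% of all positions).

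**Figure D5:**
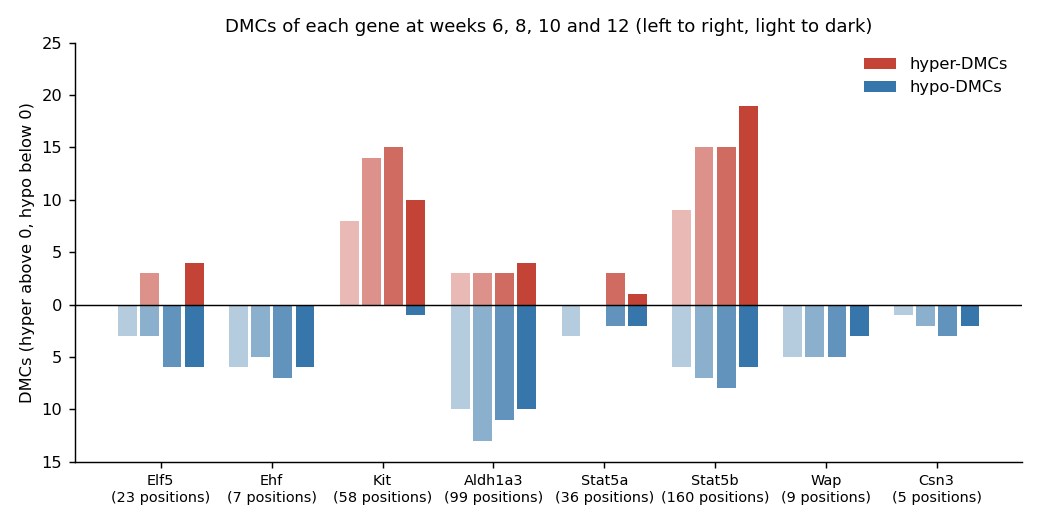
Number of DMCs of each member gene (hyper above 0, hypo below 0) at weeks 6, 8, 10 and 12, left to right and light to dark; the number under each gene is its covered positions. Kit and Stat5b have the most hyper-DMCs, up to 15 and 19, and Aldh1a3 the most hypo-DMCs, up to 13.

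The read-based test treats reads rather than samples as units. With samples as units (limma per position, same thresholds) the members held 5, 9, 14 and 11 hypo-DMCs at weeks 6, 8, 10 and 12, where 0.468, 1.17, 2.24 and 1.96% of all positions were called. They held 1, 0, 11 and 1 hyper-DMCs, where 0.0969, 0.334, 0.818 and 0.884% of all positions were called. As a share of the 397 member positions, these hypo-DMCs lay above the series at each week. The hyper-DMCs lay above it at weeks 6 and 10, with a single position at week 6, and below it at weeks 8 and 12. With samples as units, the excess of hyper-DMCs was thus not found at each week, and the differences in share were not tested. At an unadjusted p under 0.05 in limma and the same minimum difference, 37, 32, 41 and 37 member positions were lower and 16, 32, 33 and 39 were higher. The share of all positions was not counted at this threshold, so these counts cannot be set against the series. At week 6 the read-based total of 54 became 34 without PyMT week 6 replicate 1, and the 20 hyper-DMCs became 6. They became 13 without FVB week 6 replicate 3. As a description without a test, all 10 PyMT samples lay below all 12 controls at 15 member positions (3.78%) and above them at 4 (1.01%). Over all positions these shares were 2.08% and 0.654%. The 15 were in Ehf (5), Elf5 (3), Wap (3), Aldh1a3 and Stat5b, and the 4 in Stat5b, Aldh1a3 and Kit.

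The promoter differences of Ehf, Elf5 and Wap passed the test at hyperplasia already, and no whole-gene difference changed past the test between the premalignant (weeks 6 and 8) and the carcinoma stages (weeks 10 and 12). No member gene passed the test of this change in limma, against 1.99% of all genes. At an unadjusted p under 0.05 in limma, 1 of the 8 did, against 13.7% of all genes. This was Stat5b, whose whole-gene difference was 0.73, 1.22, 2.15 and 2.67 points at weeks 6, 8, 10 and 12 (limma adjusted p of the change = 0.122). It passed when PyMT week 6 replicate 1 was left out (limma adjusted p = 0.0422). For the Elf5 promoter the differences were -18.9, -22.3, -34.4 and -31.0 points, and the change missed the test (limma adjusted p = 0.0795). The PyMT means there were 12.6, 8.53, 7.29 and 10.9%, and the FVB means 31.5, 30.8, 41.7 and 41.9%. The unadjusted p of this promoter change was 0.00262 in limma. The promoters of Ehf and Stat5b changed by -15.0 and 1.38 points (limma, unadjusted p = 0.0212 and 0.0211, adjusted p = 0.271 for both). How many of all promoters had an unadjusted p this low was not counted.

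Read depth did not differ past the test for any of these genes. The coverage of each gene relative to its sample's mean was compared on the log2 scale, and no member was called by limma (lowest adjusted p = 0.986), as for 0% of all genes. None had an unadjusted p under 0.05 either. The differences ran from -0.37 for Csn3 to 0.12 for Wap, with Stat5a at 0.10 ± 0.08 and Stat5b at 0.06 ± 0.04 (log2, SE).

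Among the other genes of the prolactin and STAT5 pathway, 21 of 22 were tested, and 7 were lower, 6 higher and 8 not called. Over all genes 34.9% were lower and 18.4% were higher, and the difference from these shares was not tested. Prlr, the prolactin receptor, was lower by 26.9 points (-26.9 ± 2.33, SE, limma adjusted p = 4.83e-08) over 4 positions, from 38.3% ± 5.93 in FVB (SD, n = 12) to 11.2% ± 4.42 in PyMT (SD, n = 10). Gata3, a luminal transcription factor, was lower by 11.7 points (-11.7 ± 0.779, SE, limma adjusted p = 2.57e-09). Tnfrsf11a and Tnfsf11, the RANK receptor and its ligand, differed by 6.78 and -2.61 points, both past the test. The median of the list was 0.05 points.

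The counts of the next lists likewise stand beside 34.9% lower and 18.4% higher over all genes. Of 14 further genes of milk secretion 9 were tested, and 4 were lower, 1 higher and 4 not called (median -0.05 points). Cidea, which acts in milk lipid secretion, was lower by 16.1 points and Aqp5, a water channel, by 7.60 points (-16.1 ± 0.967 and -7.60 ± 0.258, SE, limma adjusted p = 8.80e-10 and 6.43e-12). Xdh, needed for milk fat globules, was higher by 10.2 ± 1.76 points (SE, limma adjusted p = 1.05e-04). Of 14 further luminal progenitor genes 13 were tested, and 8 were lower, 2 higher and 3 not called (median -1.28 points). Sox10 was lower by 19.1 points (-19.1 ± 1.36, SE, limma adjusted p = 5.04e-09), Tspan8 and Brca1 differed by -6.36 and -5.59 points, both past the test, and Itgb3 was higher by 3.13 ± 0.381 points (SE, limma adjusted p = 2.43e-06).

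Markers of whole cell types were counted beside these genes, against 34.9% lower and 18.4% higher over all genes. Of 12 luminal keratin and adhesion genes 11 were tested, and 10 were lower, none higher and 1 not called (median -4.50 points), among them Cldn4 (-28.9 points), Krt18 (-15.8 points), Krt7 (-15.0 points) and Epcam (-11.7 points). All 7 leukocyte genes tested of 12 were lower (median -13.1 points). Of the hormone-sensing luminal genes 4 of 10 were lower and 2 higher, of the basal genes 6 of 10 lower and 2 higher, and of the adipocyte genes 3 of 8 lower and 3 higher. Of the fibroblast genes 2 of 8 were lower and 2 higher, and of the endothelial genes 4 of 9 lower and 2 higher. The part of cell composition in the differences of the member genes was not tested.

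The genes whose 8 group means lay nearest to those of a member (smallest root mean square distance over genes with at least 5 positions) were 4933406J09Rik, Bcas3 and Fam13a for Elf5, at 1.73 to 2.28 points. For Kit they were Prr12, Rbm19 and Gm21057, at 1.18 to 1.37 points, and for Stat5a Uck1, Wdr37 and Zfp354c, at 0.838 to 0.840 points.

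The STAT5 motif TTCNNNGAA, which reads the same on both strands, was searched in the window from 250 bases before to 50 after each start listed in the promoter table. It was found in 8.3% of 32851 windows. Among the member genes listed there, the window of Csn2 held 1 match, 93 bases before the start (-93), and the windows of Elf5, Kit, Stat5a, Stat5b, Lalba and Wap held none. Csn2 had no covered CpG, so the match could not be set beside a methylation value.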

How the data were processed

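The authors aligned ERRBS reads of mammary samples to mm10 with Bismark (version not given in the sources used here). Per the study's methods they removed 2 outlier samples, and the 22 samples used here are those left. They deposited for each sample the coverage (count of reads, at least 10, no normalization, strands apart) of each CpG cytosine. Beside it they deposited the percent of reads called methylated and unmethylated, from which read counts were recovered by rounding. Sample groups came from the labels.

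Positions covered in all 22 samples were assigned to genes (body, or within 2 kb of a start site of 45756 RefSeq transcripts). Means per gene, promoter, body (at least 3 positions) and CpG cluster were unweighted. They were tested with limma (version 3.58.1, R 4.3.3, trend, 8 groups) with Benjamini-Hochberg adjustment over all such regions. DMCs used a likelihood ratio test of logistic regression on the reads of a week's samples (q-value under 0.01, difference of at least 10 points), adjusted over all 1140639 positions. Relative coverage was the log2 ratio of a gene's mean coverage to the sample's mean. SciPy 1.17.1, NumPy 2.4.6 and pandas 2.3.3 were used. The tests were tried on simulated data. The limma p-values measure the spread between these samples. The q-values of the read-based test measure the counting of reads and not that spread. Counting error shrinks with the coverage given.

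All 10 genes are described, with the cluster nearest a start and the one with the largest difference, and at most 4 genes of a list by largest difference among those called. The members and lists were chosen with earlier results of these data known. Same replicate numbers did not pair samples (correlations of -0.0404 to 0.0248).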

Additional observations from a re-analysis of the deposited data

How the results depend on the processing

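Each result was recomputed with other settings. Of the member DMCs at weeks 6, 8, 10 and 12 (54, 70, 78 and 74), a minimum difference of 25 points left 24, 28, 41 and 38. A correction for overdispersion left 20, 29, 56 and 39, and limma with samples as units left 6, 9, 25 and 12. Leaving out each library in turn gave 34 to 53, 55 to 70, 68 to 77 and 58 to 74. The lowest value at week 6 came without PyMT week 6 replicate 1. With the replicate number as a block the counts were 40, 68, 76 and 68 (12 hyper-DMCs at week 6). These were 10.1, 17.1, 19.1 and 17.1% of the member positions, against 6.97, 9.93, 12.5 and 11.8% of all. With the block the Elf5 whole-gene difference was -3.16 points (limma adjusted p = 0.0911). The block changed no other call of a member gene or promoter. Of the 7 genes called over all weeks, 7 were called in each leave-one-out fit, and 4 with a minimum difference of 5 points. With that minimum 18.2% of all genes tested were called. Of the 25 clusters called, among 36 tested, 14 differed by at least 10 points, and 22.4% of all clusters tested were called with that minimum. Of the genes whose difference changed between stages there were 0 to 1 in the leave-one-out fits. The uncalled Stat5a promoter difference changed sign when weighted by coverage (-0.0309 points) and without PyMT week 8 replicate 2 (-0.0978 points), with 0.137 points as the highest value when a library was left out. The Stat5b promoter difference, called at 2 kb, changed sign and lost its call with 500 bp on each side of the starts (-0.00831 points). Weighted by coverage, the whole-gene calls of Aldh1a3 (-2.12 points, limma adjusted p = 0.0903) and Stat5b (0.37 points, limma adjusted p = 0.870) were lost and the Aldh1a3 promoter was called (0.47 points, limma adjusted p = 0.0182). The promoter differences of Elf5, Ehf, Wap and Csn3 kept their direction and their call under every alternative in which they were tested. At a coverage minimum of 20 reads the Elf5 and Ehf promoters rested on 3 positions each. Those were the positions of the printed Elf5 intronic and Ehf upstream clusters (-25.7 and -48.0 points), so that setting did not test the whole promoter. The Ehf promoter, with 4 positions, was not tested where at least 5 were required. The cause of the changes was not tested. Groups of 2 or 3 samples, few covered positions in Ehf, Wap and Csn3, and 21.5 to 26.2 reads before the Elf5 start limit the precision.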
